A study of Mus musculus with 27 samples.

Results

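Fibronectin (Fn1) and 8 other genes for proteins of the extracellular matrix were followed through TGF-β treatment of NMuMG cells, an established line of normal mouse mammary epithelium. The 9 genes were taken by name: Fn1, Fbn1 and Fbln2 for structural glycoproteins, and Tnc, Thbs1, Thbs2, Sparc, Postn and Tgfbi for matricellular proteins. All 9 were listed among the 23295 genes of the table from parental cells and among the 24247 genes of the table from shRNA cells. TGF-β drives these cells through an epithelial-to-mesenchymal transition (EMT). RNA was sequenced from untreated cells and from cells given TGF-β for 8 or 24 h, with 2 libraries for each group. The groups were parental cells, cells carrying a control shRNA, and cells carrying an shRNA against lamin B1 (lamin B1 KD), all from the same line and all treated at 1 to 5 ng/ml where treated, as the labels give it. The shRNA cells had been infected with lentivirus and selected with puromycin, which the parental cells had not. Lamin B1 ChIP-seq and ATAC-seq, a measure of open chromatin, had 1 library per time point in parental cells, so peaks carry no replicate check.

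Fibronectin is a secreted dimer that cells assemble into fibrils by pulling on it through integrins, above all integrin α5β1 (Itga5 with Itgb1), and its appearance in epithelial cells is a textbook sign of EMT. Fibrillin-1 (Fbn1) builds microfibrils that also hold latent TGF-β, and fibulin-2 (Fbln2) bridges fibronectin, fibrillin and basement membrane proteins. Matricellular proteins such as tenascin-C (Tnc), thrombospondins (Thbs1, Thbs2), SPARC, periostin (Postn) and TGF-β-induced protein (Tgfbi) lie in the matrix but mainly modulate how cells adhere and signal. Thrombospondin-1 can release TGF-β from its latent form.

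In parental cells, Fn1, Thbs1, Fbln2 and Tnc rose by 8 h of TGF-β, and Sparc and Fbn1 had joined them by 24 h. The highest ratio of mean levels at 24 h over untreated cells was that of Thbs1, at 15.0, followed by Fn1 at 8.42 and Fbln2 at 4.20. The same 6 genes rose by 24 h in control and in KD cells. Postn did not pass the test, and Thbs2 and Tgfbi stayed under 1 FPKM in every library. Against control cells, lamin B1 KD cells had Tnc called lower before TGF-β and Sparc called higher at 8 and 24 h. Thbs1 and Fbln2 were called at 8 h, by 0.21 and -0.14 on the log2 scale. At that time 19.3% of all genes were higher and 16.5% lower. The Tnc and Fbln2 calls were lost when any 1 of the libraries compared was left out. The Fbln2 call was also lost with quantile normalization. The Thbs1 call was lost without either control library or the first KD library at 8 h. The Sparc call at 24 h was lost when only its groups were fitted. The shares of all genes called are given beside each comparison below. FPKM, the unit of all levels below, counts fragments per length of transcript and per sequencing depth, so levels can be set side by side between genes. A gene was tested where at least 2 libraries of its table reached 1 FPKM, and called at an adjusted p under 0.05 in limma. This kept 7 of the 9 genes for parental cells, and 6 for shRNA cells, in which Postn also fell out. Fbn1 entered in both tables only through its 24 h libraries, where it was highest, so its calls at 24 h follow in part from the filter.

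**Figure D1:**
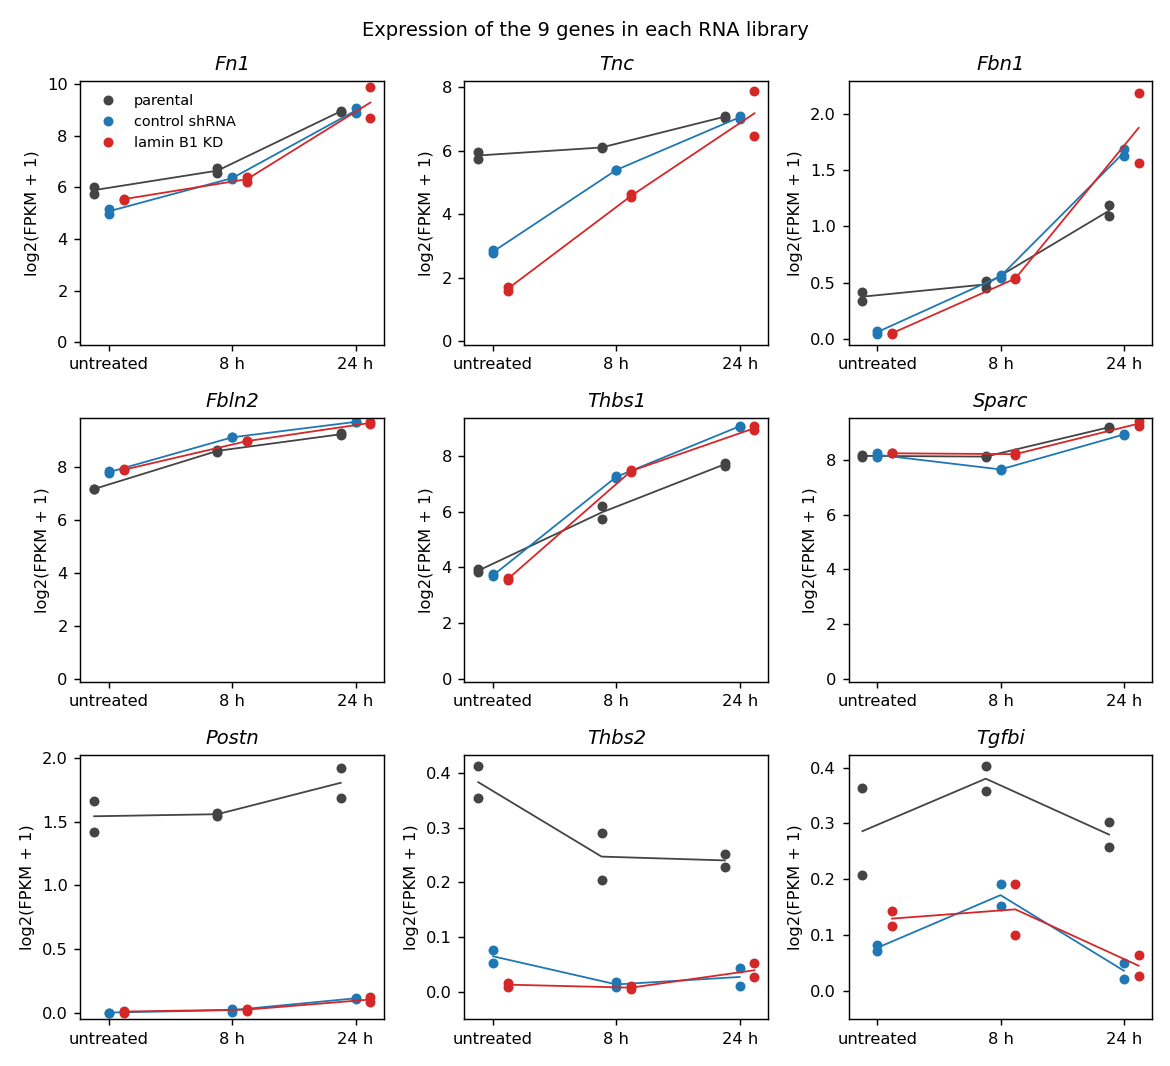
Levels of the 9 genes in each of the 18 RNA libraries, as log2(FPKM + 1), by time of TGF-β treatment. Each point is a library, lines join the group means, and the vertical scale differs between panels. The 24 h KD libraries lie apart from each other for Fn1, Tnc and Fbn1, and the points of Postn, Thbs2 and Tgfbi lie near 0 in the shRNA cells.

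Lmnb1, the gene targeted in the KD, was at 29.2 and 36.5 FPKM in the untreated control libraries and at 9.01 and 9.27 in the untreated KD libraries. The KD libraries were also below the control libraries at 8 h (7.79 and 8.14 against 32.8 and 32.1) and at 24 h (4.37 and 7.52 against 18.4 and 17.9). Lmnb1 itself fell by 24 h in parental cells, from 36.9 and 36.3 to 19.5 and 17.6 FPKM. The epithelial label was checked against 10 markers, of which 7 were at 1 FPKM or more in every library of either table, led by the keratins Krt8 and Krt18. Cldn7 stayed at or near 0 and Epcam between 0.171 and 3.15 FPKM. The epithelial markers did not move together: in parental cells by 24 h the keratin Krt19 fell from 1005 and 982 to 55.5 and 69.1 FPKM and E-cadherin (Cdh1) from 113 and 119 to 39.4 and 41.1, while the claudin Cldn4 rose from 0.0923 and 0.147 to 9.19 and 7.69 (adjusted p of 1.57e-06, 9.92e-07 and 6.89e-06, limma). Of the 8 fibroblast markers, Dcn, Col1a2 and Col3a1 were at 1.13 to 1.52, 1.43 to 2.22 and 3.48 to 4.5 FPKM in the parental libraries and at most 0.0823, 0.0520 and 0.0120 in the shRNA libraries. Lum and Thy1 were at 0 in every shRNA library and at 0.190 to 0.395 and 0.0189 to 0.0626 in the parental ones. Col1a1, Pdgfra and Pdgfrb overlapped between the tables over all times. In untreated cells each was higher in the parental libraries. Col1a1 was at 2.12 to 2.37 against 0.188 to 0.336 FPKM, Pdgfra at 0.125 to 0.130 against 0.0466 to 0.103, and Pdgfrb at 0.175 to 0.210 against at most 0.00624. At 8 h Pdgfra was instead lower in the parental libraries (0.223 to 0.361) than in the shRNA libraries (0.382 to 0.683). The summed level of all 8 was 8.87 to 18.8 FPKM in parental and 0.275 to 8.96 FPKM in shRNA libraries, and that of 5 endothelial markers was 1.25 to 2.01 and 0.0132 to 0.608. Summed fibroblast markers were also higher at 24 h than in untreated cells of each kind, but not every marker rose. In control cells at 24 h Col1a1 was at 6.39 to 6.41 FPKM and Pdgfrb at 1.04 to 1.21, in a sum of 7.73 to 7.92. Dcn was at 0.0281 to 0.0823 FPKM in untreated control cells and at 0 at 24 h. In parental cells the untreated and 24 h ranges of Dcn, Lum and Thy1 overlapped, and those of the other fibroblast markers did not. Summed endothelial markers went from 1.25 and 1.58 to 1.82 and 2.01 FPKM in parental cells and from at most 0.0138 to at least 0.413 in control cells. In parental cells the untreated and 24 h ranges of Kdr, Tek and Emcn overlapped, and those of Cdh5 and Pecam1 did not. Pecam1, Kdr and Emcn were at most 0.058, 0.0237 and 0.0151 in the shRNA libraries, so most of the control sum at 24 h lay in Cdh5 and Tek. In bulk RNA, fewer cells of a type and less RNA per cell cannot be told apart. The immune markers summed to 1.69 and 1.74 FPKM in untreated parental libraries and to 2.85 and 2.86 at 24 h, at most 2.86 in any library, and Ptprc was at most 0.0178. The part of any of these lists in the changes of the 9 genes was not tested. The KD libraries at 24 h differ from each other: their correlation over all tested genes was the lowest of any replicate pair (r = 0.960). That value cannot tell which of them is the unusual one. The summed FPKM of the second was the highest of the shRNA table (910348, against 600578 to 844665 in the other libraries). Levels at 24 h in KD cells are given for both libraries, and the changes of Fn1, Tnc, Fbn1 and Sparc also without the second. The files hold no read totals, so absolute depth is unknown. The smallest steps between low values put the relative depth of the libraries between 78.7% and 116% of the first library of their table.

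The question at the loci was whether lamin B1 or open chromatin appeared at these genes during EMT. A gene counted as having a peak where one overlapped it from 2500 bp upstream of its start to its end. Of the 9 genes, only Fn1 had a lamin B1 peak, at 8 h. None had one in untreated cells or at 24 h, and the shares of all 20994 placed genes with a lamin B1 peak were 19.9% untreated, 38.8% at 8 h and 29.4% at 24 h. ATAC peaks lay at Fn1, Thbs1 and Fbln2 in untreated cells, at none of the 9 at 8 h, and at 7 at 24 h (Fn1, Thbs1, Fbln2, Sparc, Tgfbi, Postn and Fbn1). The corresponding shares of all placed genes were 37.0%, 32.9% and 60.0%. The lists differ in length, with 9782, 10340 and 33811 ATAC peaks and 4645, 10484 and 7083 lamin B1 peaks for untreated, 8 h and 24 h cells, and the depth behind each is unknown.

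Fn1 spans chr1:71632094-71699774 on mm9, on the minus strand. The stronger of its lamin B1 peaks lay over its start (chr1:71699073-71700392) with a MACS score of 161.54, higher than 89.9% of the 10484 peaks at 8 h. A weaker one inside the gene (chr1:71655395-71656301, overlapping an exon) scored 51.87, close to the lowest score in the list, 50.02. In untreated cells and at 24 h the nearest lamin B1 peaks were 27.9 and 27.8 kb downstream of the gene. ATAC peaks covered the Fn1 start in untreated cells (966 bp wide, score 91.98) and at 24 h (1855 bp wide, score 389.26), and none was called there at 8 h. The lamin B1 peak at 8 h shared 966 of its 1320 bases with the ATAC peak of untreated cells and all 1320 with the one at 24 h. Scores come from lists of different length and are not compared as a change.

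At Thbs1 (chr2:117937612-117952869, plus strand) an ATAC peak ended short of the start in untreated cells (chr2:117936517-117937442, score 74.74), and a 2575 bp peak covered the start at 24 h with a score of 478.07, above 93.0% of that list. Fbln2 (chr6:91162449-91222534, plus strand) had a 645 bp peak over one of its annotated starts in untreated cells (score 57.15), and 3 peaks at 24 h: one upstream, one over the start and one that overlapped an exon. Sparc (chr11:55208002-55233582, minus strand) had 2 peaks, at 24 h only, the one over its start with a score of 60.31. At Postn (chr3:54165031-54194961, plus strand) the single peak at 24 h was upstream, with a score of 116.97. Tgfbi (chr13:56710920-56740923, plus strand) had one peak upstream and one in an intron at 24 h, although its RNA was under 1 FPKM. The 5 ATAC peaks of Fbn1 (chr2:125126330-125333729, minus strand) at 24 h all lay inside the gene, 3 in introns and 2 that overlapped exons, the nearest centred 34857 bp from the start. Thbs2 (chr17:14802507-14831269, minus strand) had no peak of either kind.

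Tnc had none by the annotation used, GENCODE M1, in which it spans chr4:63620819-63681760 on the minus strand. The RefSeq starts of Tnc, however, lie 26210 and 26289 bp upstream of that span, and a 24 h ATAC peak (chr4:63707667-63708429, score 51.4) covers both. With the RefSeq starts, a choice made after seeing the data and for the 9 genes only, Tnc would also count as having an ATAC peak at 24 h. The share of all genes was not counted in that way, so no total is given.

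**Figure D2:**
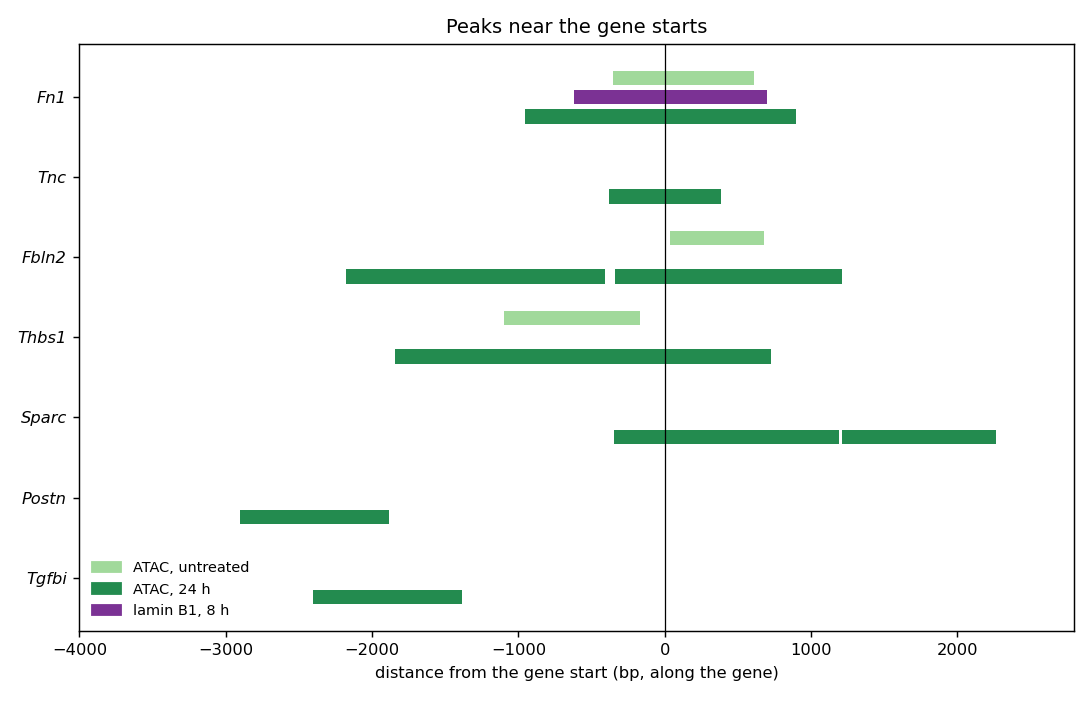
ATAC and lamin B1 peaks near the starts of 7 genes, drawn to scale as distance from the gene start in bp along the gene, with upstream to the left. Tnc is drawn from its upstream RefSeq start and the others from the annotated start. Fn1 is the only gene with a lamin B1 peak, the untreated ATAC peaks are limited to Fn1, Fbln2 and Thbs1, and no 8 h ATAC peak falls at any of the genes.

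Promoter sequences were available for 7 of the 9 genes in the RefSeq table (build GRCm38.p6). Fn1 and Thbs1 were not matched. Those shown are the ones that an ATAC peak covered over all 300 bases of the window: Fbln2, open in untreated cells and at 24 h, and Sparc and Tnc, open at 24 h. Each matched mm9 at 1 place only, and each line gives 250 bases before the start and 30 after it, 5′ to 3′. Fbln2 is chr6:91162508-91162787 on the plus strand, Sparc is chr11:55233553-55233832 on the minus strand and Tnc, at its upstream start, is chr4:63708020-63708299 on the minus strand. Capitals mark the letters of the motifs searched for on both strands.
Fbln2: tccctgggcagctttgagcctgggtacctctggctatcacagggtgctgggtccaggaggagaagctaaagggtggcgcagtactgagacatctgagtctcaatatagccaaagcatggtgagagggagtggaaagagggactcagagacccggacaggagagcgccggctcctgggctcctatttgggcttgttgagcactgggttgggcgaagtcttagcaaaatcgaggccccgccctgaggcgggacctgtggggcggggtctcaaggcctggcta
Sparc: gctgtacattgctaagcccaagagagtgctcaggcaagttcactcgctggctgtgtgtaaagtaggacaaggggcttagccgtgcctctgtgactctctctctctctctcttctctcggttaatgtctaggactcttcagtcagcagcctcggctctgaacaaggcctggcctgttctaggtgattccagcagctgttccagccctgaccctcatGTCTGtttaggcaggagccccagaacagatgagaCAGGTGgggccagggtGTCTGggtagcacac
Tnc: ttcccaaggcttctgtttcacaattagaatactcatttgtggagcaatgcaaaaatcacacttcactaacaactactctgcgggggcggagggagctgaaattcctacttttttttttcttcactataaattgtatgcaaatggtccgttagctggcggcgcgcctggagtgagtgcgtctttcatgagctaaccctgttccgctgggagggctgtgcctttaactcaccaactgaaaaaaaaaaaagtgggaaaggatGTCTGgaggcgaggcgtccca

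The motifs were CAGAC for SMAD, TGANTCA for AP-1, TGACGTCA for the cAMP response element (CRE), CATTCC for TEAD and CACCTG for the E-box bound by SNAI and ZEB factors, and none of these letters overlap another match in the lines shown. In the full windows, the SMAD letters were in 6 of the 9 windows of the 7 genes and in 49.6% of all 32851 promoters. The E-box was in 1 window, that of Sparc, and in 20.2% of all promoters. AP-1, CRE and TEAD letters were in none of the 9 windows, against 7.81%, 1.79% and 14.7% of all promoters. Fbln2 and Fbn1 held no match to any of the 5. Sparc held SMAD letters 35 bp before and 15 bp after its start, and Tnc 9 bp after its upstream start.

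Fn1 was at 53.0 and 64.4 FPKM in the untreated parental libraries, at 92.8 and 106.6 at 8 h, and at 486 and 503 at 24 h. The 3 groups did not overlap. The log2 change was 0.76 (SE 0.0980) at 8 h, 3.06 at 24 h, and 2.30 between 8 and 24 h (adjusted p of 0.000784, 8.96e-07 and 8.88e-06, limma). In control cells the levels were 34.8 and 30.6 untreated, 83.6 and 78.8 at 8 h and 469 and 541 at 24 h. In KD cells they were 45.0 and 46.2, then 84.2 and 73.8, then 415 and 942. Fn1 rose at 24 h by 3.91 in control and by 3.75 in KD cells on the log2 scale, and by 3.16 in KD cells without the second 24 h library. The larger part of the rise came after 8 h in each of the 3 kinds of cells. At 8 h the call in KD cells (0.78, adjusted p = 0.0434, limma) was lost when either untreated KD library or either 8 h KD library was left out, with adjusted p from 0.0847 to 0.162.

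Fbln2 was among the most abundant of the 9 from the start. Parental levels were 141 and 142 FPKM untreated, 393 and 376 at 8 h, and 606 and 582 at 24 h. Control levels were 216 and 224, then 547 and 548, then 827 and 813, and KD levels 232 and 237, then 491 and 501, then 824 and 772. All TGF-β groups stood above their untreated group with no overlap. The log2 changes at 8 h were 1.44, 1.31 and 1.08 in parental, control and KD cells, and at 24 h 2.06, 1.89 and 1.76. Unlike Fn1, Fbln2 had most of its rise on the log2 scale by 8 h, with a further 0.63 in parental cells from 8 to 24 h (adjusted p = 3.96e-05, limma). Whether Fbln2 and Fn1 differ in timing was not tested.

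Fbn1 was the least abundant of the structural genes. It was at 0.332 and 0.264 FPKM in untreated parental cells, at 0.427 and 0.373 at 8 h, and at 1.28 and 1.13 at 24 h. In control cells it went from 0.0335 and 0.0531 to 0.459 and 0.484 and then to 2.09 and 2.21. KD cells had 0.0342 and 0.0379, then 0.457 and 0.445, then 1.96 and 3.54. The rise passed the test at 24 h in all 3 kinds of cells (log2 of FPKM + 1 by 0.76, 1.59 and 1.82), a scale that understates the change of so low a gene. Without the second 24 h library the rise in KD cells was 1.51. At 8 h it passed in control and KD cells only (0.50 and 0.49), and both calls were lost without a filter and when any 1 of the 4 libraries compared was left out. Quantile normalization also ended the call in KD cells (0.30, adjusted p = 0.129). The 8 h and untreated parental groups did not overlap, but their difference of 0.11 did not pass.

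Thbs1 had the highest ratio of the 9 in parental cells. Parental libraries had 13.2 and 14.3 FPKM untreated, 72.0 and 52.7 at 8 h, and 215 and 199 at 24 h. Control libraries had 11.8 and 12.4, then 153 and 148, then 536 and 527. KD libraries had 10.6 and 11.3, then 178 and 171, then 482 and 533. Mean levels at 24 h were 15.0 times the untreated ones in parental, 43.8 times in control and 46.2 times in KD cells. The groups of each kind of cell were in the same order with no overlap. The log2 changes at 8 h were 2.09, 3.53 and 3.87, and at 24 h 3.81, 5.34 and 5.41 (adjusted p = 5.08e-05 at 8 h in parental cells, limma).

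Tnc differed between parental and shRNA cells before TGF-β. Its untreated levels were 52.2 and 62.0 FPKM in parental, 5.83 and 6.38 in control and 2.03 and 2.29 in KD libraries. At 8 h it was at 66.6 and 69.4 in parental, 41.4 and 41.1 in control and 23.9 and 22.2 in KD cells. By 24 h parental (131 and 137) and control (129 and 136) levels were close, and KD libraries had 88.4 and 235. The log2 change at 24 h was 1.22 in parental cells against 4.23 in control and 5.52 in KD cells, or 4.82 in KD cells without the second 24 h library. The tables were made separately, so the gap between parental and shRNA cells was not tested. It lies in the same libraries as the fibroblast and endothelial markers above, whose part in it was not tested. The small change at 8 h in parental cells (0.25, adjusted p = 0.0296, limma) was lost without the first untreated library (0.13, adjusted p = 0.102) and without the second 8 h library (adjusted p = 0.0878), and with no filter (adjusted p = 0.191).

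Sparc, a collagen-binding matricellular protein, was the most abundant of the 9 in untreated cells. Parental libraries had 287 and 277 FPKM untreated, 280 and 274 at 8 h, and 577 and 589 at 24 h, so that its rise came between 8 and 24 h (log2 change 1.07, adjusted p = 4.74e-06, limma). The untreated and 8 h groups overlapped. In control cells Sparc went from 307 and 275 to 197 and 203 and then to 481 and 490. It fell by 0.54 on the log2 scale at 8 h (adjusted p = 0.000262, limma) and was 0.74 above untreated at 24 h. KD libraries had 300 and 302, then 285 and 305, then 594 and 690, with no call at 8 h (-0.03, 95% interval -0.20 to 0.14) and a rise of 1.09 at 24 h, or 0.98 without the second library.

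Postn, Thbs2 and Tgfbi were low throughout. Postn was at 1.68 to 2.80 FPKM in the parental libraries, with 2.22 and 2.80 at 24 h against 2.17 and 1.68 untreated (log2 difference 0.26, adjusted p = 0.0665, limma). It passed without the first untreated library (0.38, adjusted p = 0.0357) or without the first 24 h library (0.38, adjusted p = 0.0349). In the shRNA libraries it was at most 0.0871, and at 0 in 3 of the 12. Thbs2 was at 0.152 to 0.330 FPKM in parental and 0.00285 to 0.0547 in shRNA libraries. Tgfbi was at 0.155 to 0.322 and 0.0153 to 0.142. Postn, Thbs2 and Tgfbi were thus higher in every parental library than in any shRNA library. The tables were made separately, this gap was not tested, and genes that separate in the same way were not counted over all genes.

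In order of level, untreated parental cells had Sparc first, then Fbln2, then Fn1 and Tnc, whose ranges overlapped, then Thbs1. At 24 h Fbln2 and Sparc overlapped at the top (means of 594 and 583 FPKM), followed by Fn1 (495), Thbs1 (207) and Tnc (134). In control cells Thbs1 was the second at 24 h (531), with a range that overlapped that of Fn1, and only Fbln2 stood above it. The 9 genes together made up 0.076% and 0.079% of the summed FPKM in untreated parental libraries and 0.290% and 0.267% at 24 h.

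**Figure D3:**
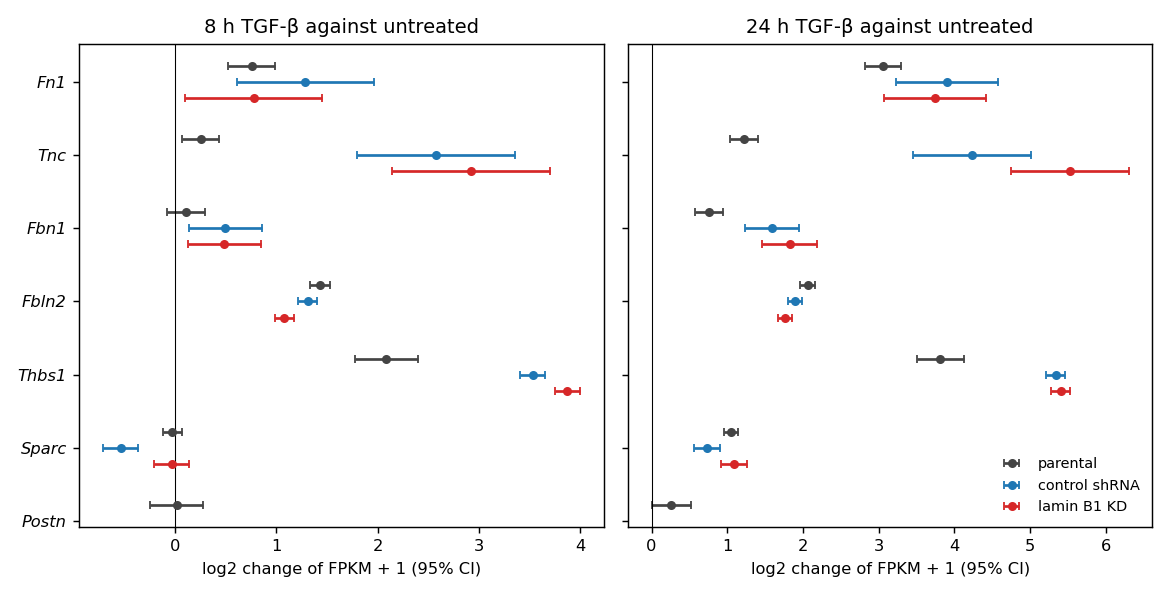
Log2 change of FPKM + 1 after 8 h and 24 h of TGF-β against untreated cells, with 95% confidence intervals from limma, for the 7 genes tested in parental cells (grey) and the 6 tested in control (blue) and KD cells (red). At 24 h every interval lies above 0 and that of Postn only just clears it, its adjusted p being 0.0665. At 8 h the interval of Sparc lies below 0 in control cells and includes 0 in the other two.

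Of the 7 genes tested in parental cells, 4 rose and none fell at 8 h, when 22.4% of all 11309 genes rose and 32.1% fell. At 24 h 6 rose and none fell, against 33.4% and 37.1% of all genes. Between 8 and 24 h 6 rose and none fell, against 27.7% and 24.0%. Of the 6 tested in control cells, 5 rose and Sparc fell at 8 h (19.4% and 44.9% of 11450 genes), and all 6 rose at 24 h (25.5% and 45.1%). In KD cells 5 rose and none fell at 8 h (23.0% and 44.8%), and 6 rose and none fell at 24 h (28.6% and 43.3%). The median log2 change of the tested members at 24 h was 1.22 in parental, 2.90 in control and 2.79 in KD cells, beside -0.02, -0.13 and -0.10 over all genes tested. Fbn1 is among the members that rose at 24 h in each kind of cell. It passed the filter only through its 24 h libraries, so the counts and medians at 24 h follow in part from the filter. The negative medians of the shRNA comparisons depend on scaling. Quantile normalization moved the median of all genes from -0.14 to -0.02 in control cells at 8 h, and Sparc at 8 h in control cells stayed lower, by 0.44 (adjusted p = 0.000188, limma). The control and KD groups shared no libraries, but the 8 and 24 h comparisons of one kind of cell shared their untreated libraries.

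The lamin B1 KD was compared with the control shRNA at each time to ask whether these genes depend on lamin B1. Untreated, none of the 6 tested genes was higher and 1, Tnc, was lower in KD cells, when 10.6% of all genes were higher and 9.09% lower. The KD libraries of Tnc (2.03 and 2.29 FPKM) lay below the control ones (5.83 and 6.38), a log2 difference of -1.17 (95% interval -1.95 to -0.39, adjusted p = 0.0444, limma). That call was lost when any 1 of the 4 untreated libraries was left out (adjusted p from 0.0949 to 0.185), the difference staying between -1.23 and -1.11. Fn1 was at 45.0 and 46.2 in KD against 34.8 and 30.6 in control libraries, without overlap, and its difference of 0.47 did not pass (adjusted p = 0.303, limma), except when only these groups were fitted (adjusted p = 0.0472).

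At 8 h Sparc and Thbs1 were higher and Fbln2 was lower in KD cells, 2 and 1 of 6 genes against 19.3% and 16.5% of all genes. Sparc was at 285 and 305 FPKM in KD and 197 and 203 in control libraries (log2 difference 0.56, SE 0.0750, adjusted p = 0.000891, limma). Thbs1 was at 178 and 171 against 153 and 148 (0.21, adjusted p = 0.0185), and Fbln2 at 491 and 501 against 547 and 548 (-0.14, adjusted p = 0.0254, limma). The groups did not overlap for any of the 3, a separation that was not counted over all genes. The Fbln2 difference went to -0.004 with quantile normalization (adjusted p = 0.983) and lost its call without any 1 of the 4 libraries at 8 h. The Thbs1 call was lost without either control library or the first KD library. Tnc was again lower in KD cells (23.9 and 22.2 against 41.4 and 41.1), a difference of -0.82 that did not pass with all groups in one fit (adjusted p = 0.0953, limma) and passed with only these groups (adjusted p = 0.000522).

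At 24 h Sparc was the 1 gene of the 6 that was higher in KD cells and none was lower, against 16.8% and 11.5% of all genes. Its KD libraries had 594 and 690 FPKM and its control libraries 481 and 490 (log2 difference 0.40, adjusted p = 0.00596, limma). That difference lost its call when only these groups were fitted (adjusted p = 0.0755), and was 0.29 without the second KD library (adjusted p = 0.0179, limma). The KD libraries of Fn1, Tnc and Fbn1 lay on both sides of the control libraries, and the direction depended on which was kept. Without the second KD library, Tnc was lower in KD than in control cells by 0.58 (adjusted p = 0.0017). Without the first, Tnc, Fn1 and Fbn1 were higher by 0.83, 0.90 and 0.53 (adjusted p of 0.000185, 0.000755 and 0.000623, limma). With both, the differences were 0.12 (95% interval -0.66 to 0.90), 0.31 (-0.36 to 0.99) and 0.22 (-0.14 to 0.58), and none passed.

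**Figure D4:**
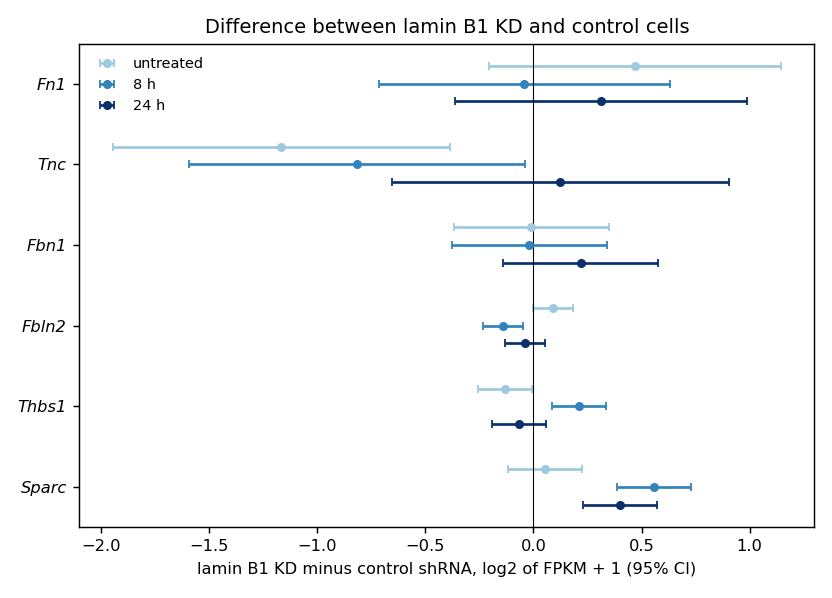
Difference between lamin B1 KD and control shRNA cells in log2(FPKM + 1), with 95% confidence intervals from limma, for the 6 genes tested, untreated and after 8 and 24 h of TGF-β. Sparc lies right of 0 at 8 and 24 h, Tnc left of 0 in untreated cells and at 8 h, and the intervals of Fn1 and Fbn1 include 0 at each time.

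Whether KD and control cells responded differently was tested with an interaction term. At 8 h it passed for Sparc (0.51, adjusted p = 0.0403) and Thbs1 (0.34, adjusted p = 0.0497, limma), higher in KD cells, and for none in the other direction, against 2.45% and 1.61% of all genes. The Thbs1 call was lost when any 1 of the 8 libraries involved was left out, and the Sparc call for 7 of the 8, all but the second untreated control library. Without that library, the interaction was -0.26 for Fbln2 at 8 h and 0.43 for Sparc at 24 h. At 24 h it passed for none of the 6 in either direction, against 2.73% and 1.98% of all genes. Before adjustment 2 of the 6, Tnc (1.29) and Sparc (0.35), were past the threshold of 0.05. Without the second KD library at 24 h, the interaction of Fn1 was -0.75 and that of Tnc 0.59. Without the first, it was 1.99 for Tnc, 0.45 for Sparc, 0.54 for Fbn1 and -0.18 for Fbln2. Each of these fits left 1 library in a group, so only the size of the effect is given.

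The pathway around these genes was described with lists written from general knowledge. Of 38 other matrix glycoproteins 19 were tested in parental cells, and at 24 h 15 rose and 4 fell (median log2 change 1.10, against -0.02 over all genes), when 33.4% of all genes rose and 37.1% fell. At 8 h 11 rose and 5 fell, against 22.4% and 32.1%. The largest rises on the log2(FPKM + 1) scale were of Wisp1, a matricellular protein of the CCN family (11.8 and 12.3 to 112 and 107 FPKM), and Smoc2, a relative of SPARC (1.82 and 2.02 to 19.0 and 19.0). Tenascin-X (Tnxb) and osteopontin (Spp1) had the largest falls on that scale, Tnxb from 5.54 and 6.66 to 0.368 and 0.338 FPKM. Tenascins thus went both ways in these cells, with Tnc up by 1.22 and Tnxb down (log2 change -2.39, adjusted p = 3.35e-06, limma).

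Among 16 receptor genes, 11 were tested in parental cells; 5 rose and 3 fell at 24 h (median 0.18), against 33.4% and 37.1% of all genes, and 8 rose and 2 fell at 8 h, against 22.4% and 32.1%. Both chains of the main fibronectin receptor rose: Itga5 from 16.6 and 16.7 to 108 and 101 FPKM and Itgb1 from 157 and 162 to 383 and 381 at 24 h. Itga5 was already at 79.0 and 61.7 at 8 h, when Fn1 was still under 107. Itgb7, a chain of the α4β7 and αEβ7 integrins, fell from 48.1 and 46.6 to 1.08 and 0.981, and Itga3, a laminin receptor chain, by 0.57 on the log2 scale. Itgb7 was lower in untreated KD cells too (8.58 and 9.37 against 28.0 and 40.9 FPKM, log2 difference -1.80, adjusted p = 0.000178, limma). Most calls of the list went the other way. Of 10 receptor genes tested in shRNA cells, 4 were higher and 2 lower in untreated KD cells, against 10.6% and 9.09% of all genes. At 8 h 7 were higher and 1 lower (19.3% and 16.5%), and at 24 h 6 were higher and 0 lower (16.8% and 11.5%).

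Of 12 genes known to respond to TGF-β, 11 rose and 1 fell by 8 h in parental cells (22.4% and 32.1% of all genes) and 9 rose and 1 fell by 24 h (33.4% and 37.1%). The feedback inhibitor Smad7 went from 4.92 and 5.19 FPKM to 11.9 and 9.64 at 8 h and 11.3 and 10.5 at 24 h, and Skil from 14.4 and 15.2 to 36.2 and 30.04 and then 34.8 and 33.3. For both, the 24 h libraries lay within the range of the 8 h libraries, while those of Fn1 and Sparc lay above it.

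The genes most like each member over the 18 libraries were found by Pearson's r of log2(FPKM + 1) after each table's mean was subtracted, among 10843 genes tested in both tables. The libraries share their untreated, 8 h and 24 h design, so many genes reach a high r, and no p is given. For Fn1 they were Pcdhgc3 (0.994), Tgfb1i1 (0.991), Col12a1 (0.988), Myl12a (0.987) and Loxl2 (0.987). They were Msn for Fbln2 (0.995), Dlc1 for Fbn1 (0.988), Stard3nl for Sparc (0.984) and Galc for Tnc (0.974). Among the members themselves the highest r were between Fn1 and Fbn1 (0.973) and between Thbs1 and Fbln2 (0.967), and the lowest between Sparc and Tnc (0.578).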

How the data were processed

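The authors sequenced RNA, lamin B1 ChIP and ATAC libraries of NMuMG cells; the Hi-C libraries were not analysed here. The deposited RNA tables hold the FPKM values that the authors computed, 1 column per library, and have no header, so each column's library follows the order named in the labels. The deposited peak lists give mm9 positions and the authors' MACS score, 1 list per time point, each ChIP library being a mix of parallel ChIPs. The submitters' processing notes name Bowtie, TopHat and Cufflinks, with no role.

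FPKM values were tested as log2 after adding 1. The filter kept genes that reached 1 FPKM in 2 or more libraries of their table. One limma fit (version 3.58.1, with R 4.3.3, using lmFit, contrasts.fit and eBayes with trend) was made per table, with Benjamini-Hochberg adjustment over all genes and an adjusted p under 0.05 as the threshold.  The replicates are biological, 2 in each group. The spread behind each p-value is that between replicates, pooled over all groups of a table and moderated across genes. It is thus not the spread of the groups compared alone. The procedure was tried on simulated data. Peaks were joined to GENCODE M1 genes by at least 1 bp of overlap, and 20994 of 23295 genes were placed by symbol. Named genes are the 9 members, Lmnb1, the genes most like the members, the largest 2 rises and 2 falls of the matrix and receptor lists in parental cells at 24 h, and TGF-β response genes; 2 genes of this rule are not reported here. The members and lists were chosen with earlier results of these data known. Alternatives were another added constant, no filter, quantile normalization, a replicate block, only the groups compared, each library left out, and stricter peak lists and overlaps. Versions: Python 3.11.15, pandas 2.3.3, numpy 2.4.6.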

Additional observations from a re-analysis of the deposited data

Results flagged for a closer look

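The response to 8 h of TGF-β differed between KD and control cells for Sparc by 0.51 and for Thbs1 by 0.34 on the log2 scale (interaction term, adjusted p of 0.0403 and 0.0497, limma). Sparc fell in control cells at 8 h and its KD libraries at 8 h (285 and 305 FPKM) lay on both sides of the untreated ones (300 and 302), and Thbs1 rose in both with the higher values in KD cells.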

How the results depend on the processing

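The counts of members that rose at 24 h in parental, control and KD cells stayed within 1.5 times the reported ones in every alternative run. The difference in response at 8 h was the least stable: 2 genes were called as reported, 1 with an added constant of 0.1 and 0 with no filter, while fitting only the groups compared gave 4 and leaving out a library gave 0 to 2. With a replicate block 0 were called (Sparc adjusted p = 0.0554, Thbs1 adjusted p = 0.0666, limma). Replicate numbers were not used as pairs in the reported fit. Deviations of same-numbered libraries correlated at -0.135 to 0.368 over 15 pairs of groups, the highest being control with KD cells at 24 h. These values do not settle whether the samples were paired. The block moved calls of the difference in response over all genes from 465 to 284 at 8 h and from 540 to 377 at 24 h. The count at 24 h, 0 as reported, was not 0 in every fit that left out a library, and calls over all genes moved as well. Of the 5 calls in KD cells at 8 h, 3 were left with no filter, and 3 to 5 without a library. For KD against control cells, the 1 call in untreated cells became 0 with no filter, 2 with only the groups compared and 0 to 0 without a library. The 3 calls at 8 h ranged over 1 to 3, and the 1 at 24 h over 1 to 4, with 2 under quantile normalization and 0 with only the groups compared. Tnc at 24 h, 0.12 as reported, ranged from -0.58 without the second KD library, a reversal, to 0.83 without the first. Of the 3 genes with an ATAC peak in untreated cells, 0 were left with only the peaks at or above the median score. Of the 7 at 24 h, 2 were left with that threshold, 2 with lists of equal length and 4 within 500 bp of a start. Equal length cut the 24 h ATAC list from 33811 to 9782 peaks. Shares of all placed genes are not given under the stricter peak settings. Whether the members lost peaks more often than other genes was thus not tested. The causes were not tested, other than the shorter lists and fewer libraries that these settings build in.

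Over all genes, calls for KD against control cells went from 2254 to 732 (untreated) and from 3241 to 710 (24 h) with only the groups compared, and for the difference in response from 465 to 714 at 8 h and from 540 to 88 at 24 h, with 297 at 8 h under no filter. Quantile normalization changed the split of higher and lower calls from 2223 and 5137 to 3082 and 3624 in control cells at 8 h, from 2924 and 5169 to 3900 and 3901 at 24 h, and in KD cells from 2629 and 5132 to 3432 and 4036 at 8 h and from 3277 and 4959 to 4126 and 4103 at 24 h. Of 702 values of single genes under the alternatives, 629 stayed on the same side of the threshold, 54 lost and 18 gained a call. In 1 the direction reversed with a call in at least 1 of the fits. The 629 include values whose direction changed where neither fit called them. Absolute depth is unknown, so no limit from depth is given for the low levels of Postn, Thbs2 and Tgfbi.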
